A study of Mus musculus with 9 samples.

Results

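Fcgr1, Fcgr3, Fcgr4, Fcgr2b and Fcer1g were followed as a group of 5 genes among the 45777 genes in the deposited tables. Together they make up the mouse Fc gamma receptors, which bind the Fc part of immunoglobulin G (IgG), and the signalling chain that the activating receptors share. They were chosen by name as a family, with earlier results of these data known, and their symbols were matched to the gene IDs of the tables. The 5 genes split into 3 activating receptors (Fcgr1, Fcgr3 and Fcgr4), 1 inhibitory receptor (Fcgr2b) and the common gamma chain (Fcer1g). All 5 of 5 passed the filter on low values.

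Fc gamma receptors bind antibody-coated particles and immune complexes. The activating receptors sit in the membrane together with the gamma chain, whose tyrosine motif (ITAM) is phosphorylated by Src family kinases and then binds Syk, which starts phagocytosis and cytokine release. The inhibitory receptor carries its own motif (ITIM), which recruits the phosphatase SHIP1, so that the balance of activating to inhibitory receptors sets how a myeloid cell responds to IgG. In the liver these receptors are found on Kupffer cells, infiltrating monocytes and neutrophils, and the inhibitory receptor is also abundant on sinusoidal endothelial cells, which clear small immune complexes.

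The study measured bulk RNA of CD11b+ cells, the myeloid fraction isolated from dissociated mouse liver. Every animal received acetaminophen (APAP) into the peritoneum, which causes acute liver failure, and livers were taken 48 hours later, so that no group is free of injury. The PBS group (3 samples) received saline buffer, the HEK-EV group (3 samples) received SIRP-EV from HEK cells, and the MSC-EV group (3 samples) received SIRP-EV from MSC, with the extracellular vesicles (EV) injected into a vein 8 hours after APAP. HEK is a human embryonic kidney line, MSC usually stands for mesenchymal stem or stromal cells, and the labels do not spell out SIRP or MSC and give no strain, sex or age. Nothing says that the samples of a group came from separate animals or cultures, so the p-values below measure only the spread between these samples, which may be technical.

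Levels are TPM, transcripts scaled for length and for the total of the sample, which can be compared between genes. Fold changes are differences of log2(TPM + 1), tested with limma over the 13820 genes that reached 1 TPM in 3 samples or more, and adjusted p is Benjamini-Hochberg adjusted over all of these genes, with 0.05 as the threshold. The defining genes of the labelled cells were present in every sample, with Itgam, which encodes CD11b, at 196 to 434 TPM and the pan-leukocyte gene Ptprc at 418 to 669 TPM. Both genes were lower in every MSC-EV sample than in any other sample. Samples of a group correlated at 0.98 to 0.99 across genes. Read counts were not used here, so relative depth was read from coverage divided by FPKM, lowest in PBS replicate 1 (5.28) and between 6.06 and 6.84 in the others. All 3 MSC-EV samples, at 6.585 or more, lay above all other samples, at 6.47 or less. Transcripts of 21 pancreatic acinar genes set 2 libraries apart, MSC-EV replicate 3 (0.326% of TPM) and HEK-EV replicate 2 (0.114%), with smaller amounts in MSC-EV replicate 1 (0.0154%) and HEK-EV replicate 1 (0.00404%) and at most 0.00154% elsewhere. Without MSC-EV replicate 3 and HEK-EV replicate 2 together, limma called 0 of the 13820 genes in MSC-EV against PBS (706 with them) and 0 in MSC-EV against HEK-EV (817 with them), with 2755 and 2914 at an unadjusted p under 0.05, so that every call given below for a single gene or list ended in that fit. The mitochondrial share of TPM also set the groups apart, at 7.55% to 7.90% in the MSC-EV samples and 5.44% to 6.48% in the others.

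Of the 5 genes, 4 lie close together on chromosome 1 and 1 lies on chromosome 3. In build GRCm38.p6, whose gene positions equal those of the files for all 5, Fcgr2b (gene ID 14130) spans chr1:170960558-170976071 on the minus strand, Fcgr4 (246256) spans chr1:171018926-171029761 on the plus strand, Fcgr3 (14131) spans chr1:171051169-171065915 on the minus strand and Fcer1g (14127) spans chr1:171229572-171234349 on the minus strand. Fcgr1 (14129) spans chr3:96282909-96293969 on the minus strand. The extracellular parts of Fcgr2b and Fcgr3 are close relatives, and their GENCODE transcripts (4 and 3) shared 166 stretches of 50 bases, 4.48% of those of Fcgr2b and 10.2% of those of Fcgr3, so a small part of their reads may have been split between them. No other pair shared a stretch of this length. Fcgr3 overlaps 4 small RNA genes, each under 1 TPM in every sample, and Fcgr4 overlaps Gm26110 with at most 1.43 TPM. A GENCODE gene, Gm38204, lies antisense to Fcgr2b and is not in the tables used here, and the strand setting of the counting is not given, so its reads could not be told apart from those of Fcgr2b.

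The promoters of the 4 receptors are shown because the estimates for Fcgr1, Fcgr4 and Fcgr2b in the MSC-EV group were alike in size and direction and that for Fcgr3 was near 0, and because the myeloid factor PU.1 is a textbook regulator of these genes. Each is the 250 bases before the RefSeq start (GRCm38.p6), written 5′ to 3′ on the gene's strand, and capitals mark matches to the letters GAGGAA (a PU.1 core, read as TTCCTC on the other strand).
Fcgr1, chr3:96293970-96294219, minus strand: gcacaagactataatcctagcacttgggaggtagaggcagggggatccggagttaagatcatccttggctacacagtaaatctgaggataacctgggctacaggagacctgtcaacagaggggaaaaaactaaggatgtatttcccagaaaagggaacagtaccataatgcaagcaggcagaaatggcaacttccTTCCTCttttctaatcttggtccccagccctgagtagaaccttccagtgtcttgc
Fcgr4, chr1:171018676-171018925, plus strand: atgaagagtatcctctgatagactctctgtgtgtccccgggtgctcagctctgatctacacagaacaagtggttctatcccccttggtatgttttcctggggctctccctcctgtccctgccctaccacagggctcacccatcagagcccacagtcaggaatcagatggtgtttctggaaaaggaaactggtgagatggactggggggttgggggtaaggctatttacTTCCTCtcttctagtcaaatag
Fcgr3, chr1:171059404-171059653, minus strand: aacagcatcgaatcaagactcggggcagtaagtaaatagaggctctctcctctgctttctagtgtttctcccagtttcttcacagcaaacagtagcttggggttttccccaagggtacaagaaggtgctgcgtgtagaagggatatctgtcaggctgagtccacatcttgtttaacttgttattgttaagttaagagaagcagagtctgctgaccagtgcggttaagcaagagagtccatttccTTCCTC
Fcgr2b, chr1:170976072-170976321, minus strand: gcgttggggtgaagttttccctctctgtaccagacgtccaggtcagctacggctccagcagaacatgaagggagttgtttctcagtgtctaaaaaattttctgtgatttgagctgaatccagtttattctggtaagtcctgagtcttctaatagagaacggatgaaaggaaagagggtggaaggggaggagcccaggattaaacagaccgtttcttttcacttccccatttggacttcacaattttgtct
Fcgr1 held TTCCTC at 55 to 50 bases before the start, Fcgr4 at 22 to 17 bases and Fcgr3 at 6 to 1 bases. No match to these letters was in the windows of Fcgr2b or Fcer1g. Other forms of PU.1 sites were not searched, so this does not mean that these windows lack such a site. Among 32851 promoter windows of 27025 genes, 23.25% held GAGGAA on either strand, and a match describes letters only. The Fcgr3 start used here lies inside the gene span given by the files, and a second RefSeq start held the same match at 15 to 10 bases.

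In all groups the order of levels was the same at its top. Fcer1g was highest, at 2312 ± 153 TPM in PBS, 2296 ± 67.8 in HEK-EV and 2169 ± 69.3 in MSC-EV (mean ± SD, n = 3 each), and ranked 33 to 38 among all genes by sample. Fcgr3 was second, at 684 ± 44.8, 684 ± 35.5 and 662 ± 52.8 TPM in the same order of groups, and ranked 213 to 239. The remaining receptors followed between 248 and 514 TPM (ranks 306 to 597), and within each group the ranges of Fcgr1, Fcgr4 and Fcgr2b overlapped. Within samples, Fcgr4 was the highest of them in all 3 HEK-EV samples and Fcgr1 was above Fcgr2b in all 3 MSC-EV samples. The gamma chain stood at 1.57 ± 0.166 times the summed TPM of the 3 activating receptors in PBS, 1.58 ± 0.0354 times in HEK-EV and 1.79 ± 0.18 times in MSC-EV, where the MSC-EV range overlapped with PBS and not with HEK-EV.

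**Figure D1:**
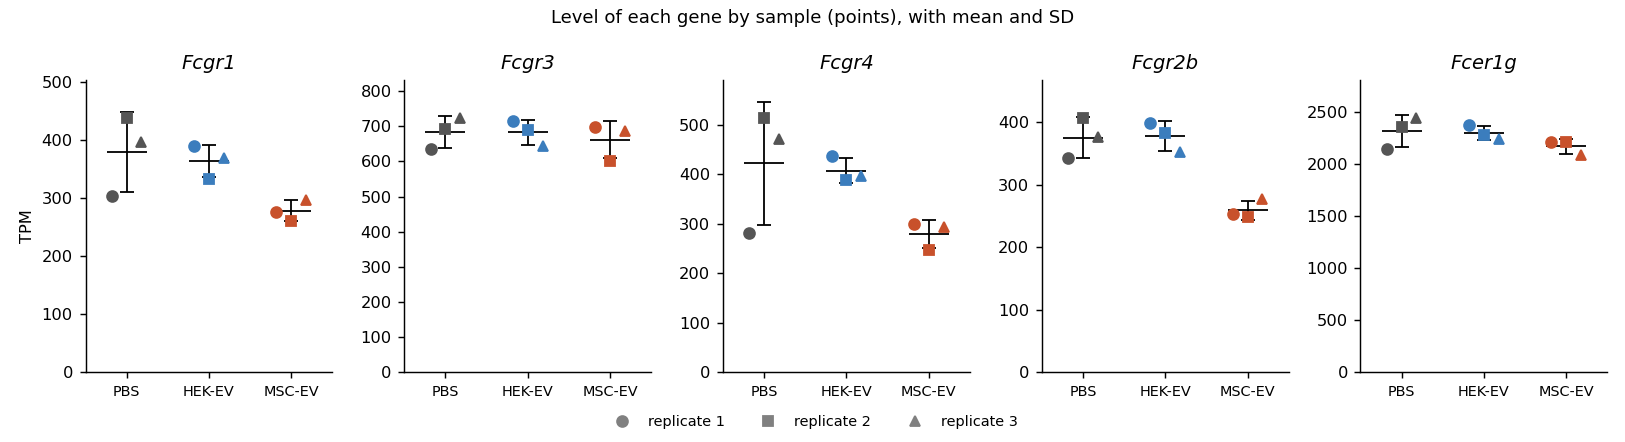
Level of each of the 5 genes in TPM (linear axis from 0, a scale of its own for each gene) in the 9 samples, with points for samples (marker shape gives the replicate) and bars for mean and SD of 3. The MSC-EV samples of Fcgr2b and Fcgr1 lie under all others, PBS replicate 1 is the lowest PBS sample in every panel, and Fcgr3 overlaps across the groups.

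The inhibitory receptor Fcgr2b fell in the MSC-EV group. Fcgr2b was at 342, 407 and 377 TPM in PBS replicates 1 to 3, at 398, 384 and 352 TPM in HEK-EV, and at 253, 248 and 277 TPM in MSC-EV. Every MSC-EV sample was lower than every sample of the other groups, whose ranges overlapped. The mitochondrial share of TPM separated the samples in the same way, and its part in the result was not tested. Against PBS, the level in MSC-EV was 0.692 times as high (log2 fold change -0.53, SE 0.0785, 95% interval -0.71 to -0.35, limma adjusted p = 0.0171). Against HEK-EV the difference was of like size (log2 fold change -0.54, SE 0.0785, limma adjusted p = 0.0205). These comparisons share the MSC-EV samples and are not independent of each other.

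Fcgr2b was the 1 member of 5 called lower in MSC-EV against PBS, where 3.25% of all genes tested were called lower and 1.86% higher, and likewise the 1 of 5 called lower in MSC-EV against HEK-EV, where the shares were 4.4% and 1.51%. The excess of lower over higher calls depended on scaling: higher calls made up 36.4% against PBS and 25.6% against HEK-EV on TPM, but 63.1% and 59.5% on FPKM. The call was sensitive to single libraries. Against PBS, leaving out PBS replicate 2, PBS replicate 3, MSC-EV replicate 1 or MSC-EV replicate 2 gave log2 fold changes of -0.47, -0.53, -0.51 and -0.50 with limma adjusted p of 0.0891, 0.076, 0.0812 and 0.0609. Against HEK-EV, leaving out HEK-EV replicate 1 (-0.50), HEK-EV replicate 2 (-0.53), MSC-EV replicate 1 (-0.53) or MSC-EV replicate 2 (-0.51) ended the call in the same way, with adjusted p of 0.0531 to 0.0833 in limma. With the 2 libraries highest in acinar transcripts both left out, the fold changes were -0.58 against PBS (limma adjusted p = 0.0534) and -0.58 against HEK-EV (0.0656). With the acinar signal as a term in the fit, the value against PBS was -0.61 (limma adjusted p = 0.0546). Fcgr2b kept its direction in each of these fits, and the part of acinar RNA in the result was not tested beyond them.

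Fcgr1, the high-affinity receptor (CD64) of monocytes and macrophages, was at 305, 439 and 398 TPM in PBS, 389.5, 334 and 369.6 TPM in HEK-EV, and 276, 262 and 297 TPM in MSC-EV. All MSC-EV samples were lower than all others, by a narrow margin to PBS replicate 1. The log2 fold change against PBS was -0.43 (SE 0.124, 95% interval -0.71 to -0.16), which did not pass the threshold (limma adjusted p = 0.0744). Against HEK-EV it was -0.39 (95% interval -0.66 to -0.11), with a limma adjusted p of 0.0969.

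Fcgr4 binds IgG2a and IgG2b and is known from neutrophils, macrophages and Ly6C-low monocytes. It had the widest spread over the 9 samples (coefficient of variation 25.3%), at 281, 514 and 471 TPM in PBS, 436, 389 and 397 TPM in HEK-EV, and 299, 248 and 293 TPM in MSC-EV. PBS replicate 1 lay within the MSC-EV range, while the HEK-EV samples were all above it. The estimate against PBS was as large as that of Fcgr2b, at -0.55, but its standard error of 0.193 gave a 95% interval of -0.98 to -0.11 and a limma adjusted p of 0.128. Against HEK-EV the log2 fold change was -0.54 (95% interval -0.98 to -0.11, limma adjusted p = 0.129).

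The calls of Fcgr1 and Fcgr4 changed with PBS replicate 1. Without it, the log2 fold change of Fcgr1 in MSC-EV was -0.59 against PBS (limma adjusted p = 0.00444) and -0.39 against HEK-EV (0.0181), and that of Fcgr4 was -0.82 against PBS (0.00202) and -0.54 against HEK-EV (0.00823), all past the threshold. Against HEK-EV the fold changes themselves stayed the same, since this library enters there only through the shared estimate of the spread, and both genes also passed with only the 6 samples compared. The same library had the lowest depth measure and the lowest PBS level of all 5 genes, and with depth as a covariate or with array quality weights, this library kept, both genes also passed in both comparisons. All of these fits called more genes of the 13820 than the main fit. Against PBS they called 1861 without PBS replicate 1, 1447 with depth and 4163 with weights, beside 706. Against HEK-EV they called 1369, 1516 and 2081 in the same order and 1098 with only the 6 samples compared, beside 817. The depth measure also set the MSC-EV samples above all others, so the fit with depth as a covariate cannot fully separate depth from group. The part of depth in the values of PBS replicate 1 was not tested further. Nothing in the labels sets this library apart, so it was kept.

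Fcgr3 (CD16), the low-affinity activating receptor that uses the same gamma chain, showed no detectable difference. Its levels were 636, 693 and 724 TPM in PBS, 715, 691 and 645 TPM in HEK-EV, and 698, 602 and 687 TPM in MSC-EV. The 3 groups overlapped throughout. The log2 fold change in MSC-EV was -0.05 against PBS (95% interval -0.22 to 0.13, limma adjusted p = 0.771) and -0.05 against HEK-EV (95% interval -0.22 to 0.13, limma adjusted p = 0.768). The interval against PBS and that of Fcgr2b did not overlap, but the difference between the genes was not itself tested. The sign of the Fcgr3 estimate turned with the scaling, to 0.062 against PBS and 0.046 against HEK-EV after quantile normalization and to 0.019 against HEK-EV on FPKM. Without MSC-EV replicate 2 it was 0.019 against PBS and 0.020 against HEK-EV.

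Fcer1g, the gamma chain, was at 2143, 2352 and 2441 TPM in PBS, 2372, 2272 and 2243 TPM in HEK-EV, and 2212, 2205 and 2089 TPM in MSC-EV. MSC-EV overlapped with PBS and lay just under HEK-EV. The log2 fold changes were -0.09 against PBS (95% interval -0.24 to 0.06, limma adjusted p = 0.476) and -0.08 against HEK-EV (95% interval -0.23 to 0.07, limma adjusted p = 0.52). Counted by overlap alone, 2 of the 5 genes (Fcgr1 and Fcgr2b) were lower in every MSC-EV sample than in any PBS sample, against 14.9% of all genes tested, and 4 of 5 (all but Fcgr3) were lower in every MSC-EV than in any HEK-EV sample, against 17.5%.

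**Figure D2:**
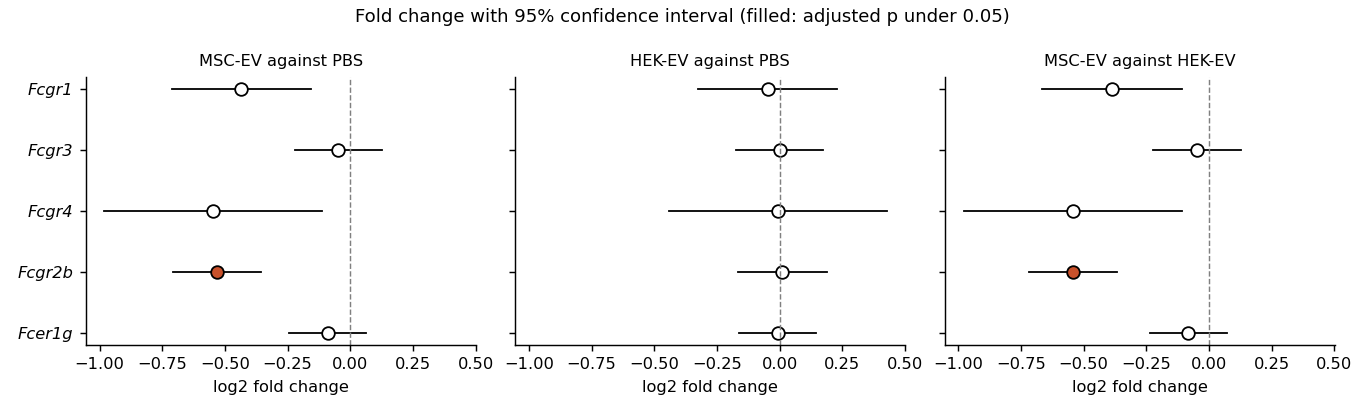
Differences of log2(TPM + 1) for the 5 genes with 95% confidence intervals from limma, in 3 panels for MSC-EV against PBS, HEK-EV against PBS and MSC-EV against HEK-EV, with filled points for adjusted p under 0.05. Fcgr2b is the only filled point, in the panels with MSC-EV, and all 5 points of the panel for HEK-EV against PBS lie within 0.05 of 0.

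Vesicles from HEK cells were not accompanied by a detectable difference in any member. Against PBS the 5 log2 fold changes lay between -0.05 and 0.01, all groups overlapped, and the smallest adjusted p in limma was 0.999. The 95% intervals were -0.33 to 0.23 for Fcgr1, -0.17 to 0.19 for Fcgr2b, -0.18 to 0.17 for Fcgr3, -0.44 to 0.43 for Fcgr4 and -0.16 to 0.14 for Fcer1g. No gene at all was called between these groups (0% higher and 0% lower of 13820 in limma), 495 had an unadjusted p under 0.05, and 2.29% were lower without overlap.

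The balance between activating and inhibitory receptors was followed as the ratio of TPM to Fcgr2b within each sample, which does not depend on how samples are scaled. Fcgr3 to Fcgr2b was 1.86, 1.70 and 1.92 in PBS, 1.80, 1.80 and 1.83 in HEK-EV, and 2.76, 2.43 and 2.48 in MSC-EV. The MSC-EV samples were all above the others, and PBS and HEK-EV overlapped. The group means were 1.83 ± 0.111, 1.81 ± 0.0212 and 2.56 ± 0.179 (SD, n = 3). Fcer1g to Fcgr2b showed the same order, with 6.17 ± 0.356 in PBS, 6.08 ± 0.253 in HEK-EV and 8.40 ± 0.739 in MSC-EV, and no overlap of MSC-EV (7.55 to 8.89) with the others (5.78 to 6.47). Both ratios share Fcgr2b as denominator. Against PBS the log2 fold change in MSC-EV was -0.53 for Fcgr2b, -0.05 for Fcgr3 and -0.09 for Fcer1g. The ratios thus largely restate the Fcgr2b difference and are no separate evidence of a shift in balance. How many other genes separate the groups when divided by Fcgr2b was not counted.

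For the other activating receptors the ratios overlapped more. Fcgr1 to Fcgr2b was 0.889 to 1.08 in PBS, 0.870 to 1.05 in HEK-EV and 1.06 to 1.09 in MSC-EV, so that MSC-EV overlapped with PBS and lay just above HEK-EV. Fcgr4 to Fcgr2b was 0.821 to 1.26 in PBS, 1.01 to 1.13 in HEK-EV and 0.998 to 1.18 in MSC-EV, with all 3 groups overlapping. The summed activating receptors stood at 3.94 ± 0.339 times Fcgr2b in PBS, 3.86 ± 0.164 in HEK-EV and 4.71 ± 0.289 in MSC-EV, without overlap of MSC-EV. Fcgr3 made up 37.1% ± 3.45 of the 4 receptors in PBS, 37.3% ± 0.991 in HEK-EV and 44.7% ± 0.873 in MSC-EV. The ratios are descriptions: an exact permutation test of 3 against 3 samples cannot give a p under 0.1, and none was run.

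**Figure D3:**
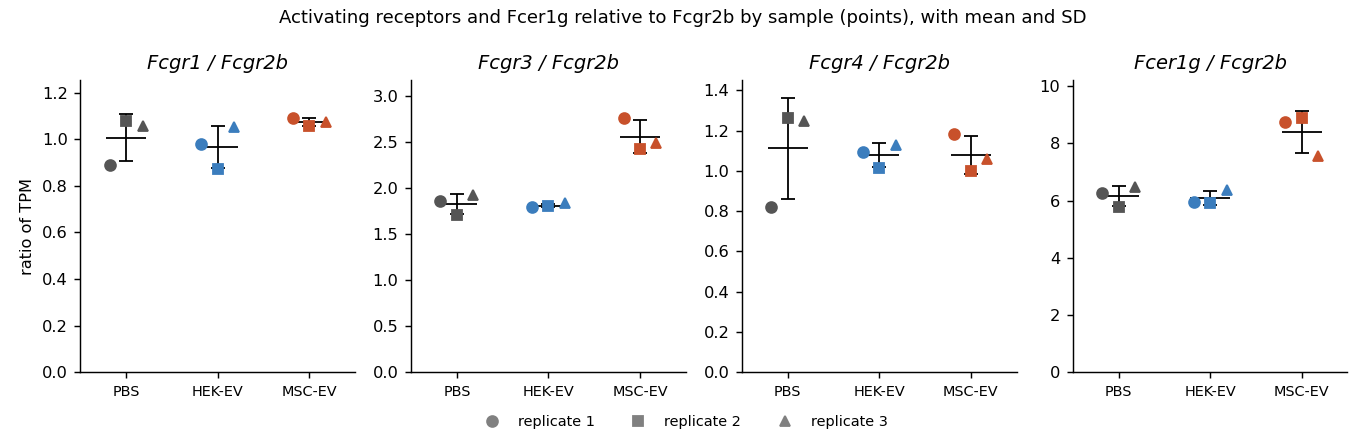
Ratio of TPM of Fcgr1, Fcgr3, Fcgr4 and Fcer1g to Fcgr2b in each sample (points, marker shape for the replicate) with mean and SD of 3 (linear axes from 0). Fcgr3 and Fcer1g relative to Fcgr2b are higher in all MSC-EV samples (2.43 to 2.76 and 7.55 to 8.89), while the ratios of Fcgr1 and Fcgr4 overlap with PBS.

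Across the 9 samples, Fcgr1 and Fcgr4 followed each other most closely, with a Pearson correlation of 0.97 of log2(TPM + 1), and of 0.94 for deviations from the group means. Fcgr2b correlated with Fcgr1 at 0.90 and with Fcgr4 at 0.86, and Fcgr3 with Fcgr2b at 0.47. For deviations from the group means these 3 values were 0.77, 0.77 and 0.70. These values are descriptions over 9 samples that share group, depth and library differences. Of 9583 genes with a mean of at least 5 TPM, those most like Fcgr1 in the same measure were Trim30a, Oas3 and Oasl1 (0.99 each). In MSC-EV against PBS their log2 fold changes were -0.52, -0.99 and -1.01. Most like Fcgr2b were Nedd9, Itch and Acer3 (0.99 each), and most like Fcgr4 were Vrk3 (0.98), Irf7 (0.97) and Ms4a6b (0.97). In the same comparison these had -0.42, -0.40 and -0.49, and -0.18, -0.87 and -0.66. All were picked by likeness over the same samples, so these fold changes are no separate evidence. For Fcgr3 the closest were Gpx3 (0.90), Usb1 (0.87) and Eif2s3y (0.87), and for Fcer1g they were Cd53 (0.96), Cript (0.95) and Prdx5 (0.95).

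The other genes of the pathway were taken from 7 lists of 87 genes, of which 76 were tested. In MSC-EV against PBS, 12 were called lower and 5 higher (3.25% and 1.86% over all genes), in HEK-EV against PBS none of 76 was called in limma, and in MSC-EV against HEK-EV, 21 were called lower and 3 higher (4.4% and 1.51% over all genes). None of these calls was left without the 2 libraries highest in acinar transcripts, and over all genes the 706 calls against PBS became 77 with only the 6 samples compared, 21 with the acinar term and 5 without PBS replicate 2. Among 16 genes that carry the signal of activating receptors, 4 fell against PBS and 0 rose, with a list median of -0.22 beside 0.01 for all genes tested. They were the Src family kinases Fgr (-0.58, adjusted p = 0.0238) and Lyn (-0.40, 0.0343), the phospholipase Plcg2 (-0.48, 0.0263) and the adaptor Lcp2 (-0.40, 0.0236), all by limma. Syk, the kinase that docks on the gamma chain, was at 198 TPM in PBS and 192 TPM in MSC-EV (-0.04, limma adjusted p = 0.703). Against HEK-EV 8 of the 16 fell, these 4 together with Pik3cd, Rac2, Was and Card9.

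Genes of inhibitory signalling were also lower where they were called. Of 10 genes of inhibitory signalling, 3 fell against PBS and 0 rose (median -0.29): Dok3 (-0.53, adjusted p = 0.0236), the phosphatase Ptpn6, known as SHP-1 (-0.39, 0.0405), and the ubiquitin ligase Cblb (-0.37, 0.0313), by limma. Inpp5d, which encodes SHIP1, the phosphatase that Fcgr2b recruits, had a log2 difference of -0.17 against PBS (limma adjusted p = 0.103) and fell against HEK-EV by 0.24 (0.038). Of 12 other ITIM receptors of myeloid cells, 2 fell against PBS, Pilra (-0.74, limma adjusted p = 0.0377) and Cd72 (-0.60, 0.0268), and 5 fell against HEK-EV, among them Pirb, a receptor for class I molecules (-0.49, limma adjusted p = 0.0207). Sirpa, the ITIM receptor for CD47, was at 751 TPM in PBS and 796 TPM in MSC-EV (0.09, limma adjusted p = 0.449).

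Of 8 tested genes for receptors that pair with the gamma chain or a related adaptor, and for those adaptors, 2 fell and 1 rose against PBS. The C-type lectin Clec4n, or dectin-2, fell by 0.37 (limma adjusted p = 0.0315) and Pira2 by 0.50 (0.0418), both gamma chain partners, while Trem2, which signals through Tyrobp, rose by 0.54 (0.038). Tyrobp itself, the DAP12 adaptor, was at 2828 TPM in PBS and 2512 TPM in MSC-EV (-0.17, limma adjusted p = 0.211). The same 3 genes were called in the same directions against HEK-EV.

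The ligand list held immunoglobulin chains and pentraxins, among them chains of IgM and IgA, which these receptors do not bind as their main ligands. Of its 8 genes tested, 1 passed against PBS, and 7 had a positive difference (median 0.50, beside 0.01 for all genes tested). Against HEK-EV 7 were also positive (median 0.47). Igha, Igkc and Jchain were higher in every MSC-EV sample than in any other sample, and none of them passed in either comparison. The share of all genes that were higher in this way was not counted. For lower values without overlap it was 14.9% against PBS and 17.5% against HEK-EV. The IgG heavy chains Ighg1 (1.11 TPM in PBS, 1.69 in MSC-EV, limma adjusted p = 0.561) and Ighg2b (2.52 and 5.20 TPM, 0.245) did not pass. Crp, which encodes C-reactive protein, an acute-phase protein of hepatocytes that binds Fc gamma receptors, rose (1.58 to 4.64 TPM, 1.13, limma adjusted p = 0.0119). Of 5 other Fc receptors and antibody-binding proteins, 3 rose against PBS: the epithelial polymeric receptor Pigr (1.74 to 4.71 TPM, limma adjusted p = 0.0329), Fcrl1 (31.8 to 42.1 TPM, 0.0389) and Lgals3, an IgE-binding galectin of macrophages (1579 to 2356 TPM, 0.039). Against HEK-EV only Lgals3 of these 5 was called (0.67, limma adjusted p = 0.0263), with Pigr at an adjusted p of 0.0559 and Fcrl1 at 0.20. Summed markers of hepatocytes were also higher in MSC-EV, at 675 to 767 TPM beside 449 to 506 in PBS and 378 to 519 in HEK-EV, with 3 of 9 genes called higher against PBS, and their part in the Crp and Pigr values was not tested.

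Of 17 genes for interferon signalling and myeloid factors, which control Fc receptor genes in the textbook account, Cebpb was the 1 that fell against PBS (-0.52, limma adjusted p = 0.0273), and 14 had a negative difference (median -0.21), beside 47.7% of all genes tested. Of the 3 that did not, Cxcl9 had the largest difference of the list (11.7 TPM in PBS, 50.6 in MSC-EV, 1.54, limma adjusted p = 0.207). MSC-EV replicate 1 carried much of this Cxcl9 difference, at 115 TPM beside 20.5 and 15.9 in replicates 2 and 3 and 6.61 to 16.6 in PBS. Spi1, which encodes PU.1, was at 526 TPM in PBS and 459 TPM in MSC-EV (-0.20, limma adjusted p = 0.0546), and Ifngr1, a chain of the interferon gamma receptor, at 480.5 and 361 TPM (-0.41, limma adjusted p = 0.0546). Against HEK-EV the only call was Jak1 (-0.28, limma adjusted p = 0.0317). Trim30a, Oas3, Oasl1 and Irf7, named above for their likeness to Fcgr1 or Fcgr4, were not on this list.

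**Figure D4:**
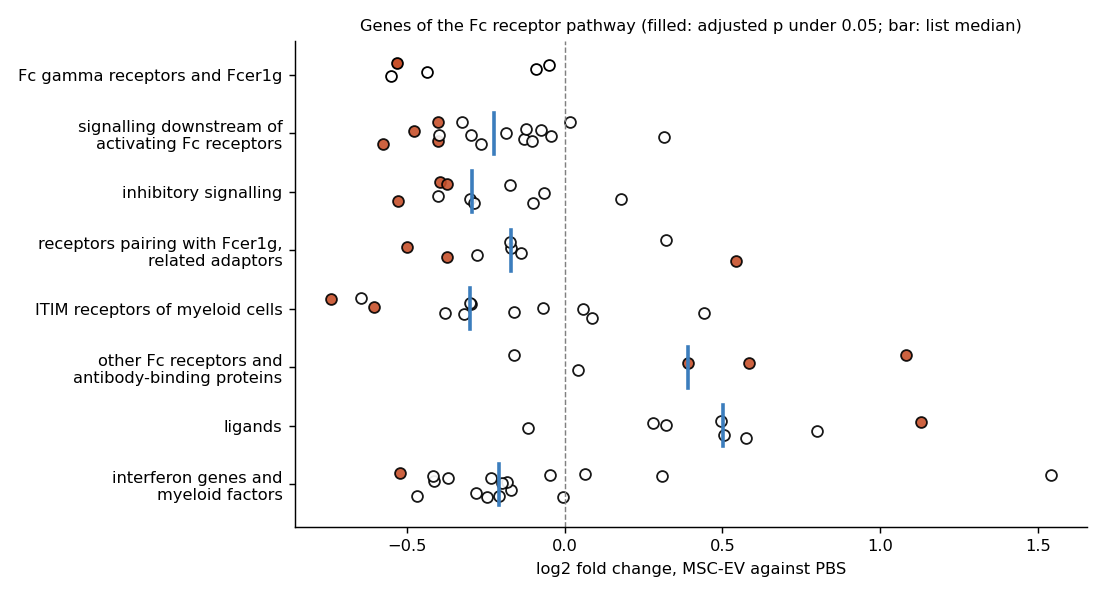
Differences of log2(TPM + 1) in MSC-EV against PBS (x axis) for the tested genes of the 7 pathway lists and the 5 Fc receptor genes (rows), with filled points for adjusted p under 0.05 and vertical bars for list medians. Points of the lists for activating and inhibitory signalling both lie mostly left of 0, with 4 of 16 and 3 of 10 filled.

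Markers of monocytes, which carry these receptors, were lower in the MSC-EV group. In bulk samples, fewer cells of a type and less RNA per cell cannot be told apart. The 9 genes of Ly6C-low monocytes, which are known for Fcgr4, summed to 1968 to 2512 TPM in PBS, 2240 to 2442 in HEK-EV and 1281 to 1502 in MSC-EV, and 7 of 9 were called lower against PBS, where 3.25% of all genes were, among them Nr4a1 (869 to 497 TPM) and Ace (207 to 87.4 TPM). The 8 genes of Ly6C-high monocytes summed to 4945 to 8987, 6042 to 8071 and 2856 to 3930 TPM in the same order, with 4 of 8 called lower. All defining markers of both lists were above 1 TPM in every sample. PBS replicate 1 was the lowest PBS sample in both sums, as it was for all 5 Fc receptor genes.

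Over the 9 samples the Ly6C-low sum correlated with Fcgr2b at 0.95, with Fcgr1 at 0.90, with Fcgr4 at 0.84 and with Fcgr3 at 0.30. The Ly6C-high sum did so at 0.91, 0.94, 0.89 and 0.37 in the same order, and the hepatocyte sum correlated with Fcgr2b at -0.95. These are descriptions that share the group difference, and they are not particular to a cell type. General macrophage markers, such as Adgre1 and C1qa, did not go the same way: their 8 genes summed to 7189 to 8788 TPM in PBS, 7519 to 8615 in HEK-EV and 8294 to 9816 in MSC-EV, with 0 of 8 called against PBS in limma. The 11 neutrophil genes summed to 3117 to 5737, 5126 to 7037 and 3041 to 3844 TPM, and 1 of 11 was called, upward, against PBS. Against HEK-EV 1 of the 8 macrophage genes was called, Cd68, upward (0.33, limma adjusted p = 0.0443). Of the 11 neutrophil genes 1 was called upward and 1 downward there. The macrophage sum correlated with Fcgr2b at -0.71, with Fcgr1 at -0.76, with Fcgr4 at -0.72 and with Fcgr3 at -0.32. The part of these cell types in the receptor values was not tested.

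Sinusoidal endothelial cells, the other liver source of Fcgr2b, had 11 of 11 markers above 1 TPM in every sample although the cells were isolated by CD11b. Their sum was 434, 397 and 359 TPM in PBS, 213, 371 and 495 TPM in HEK-EV and 213, 143 and 269 TPM in MSC-EV. The HEK-EV samples overlapped with both other groups, and MSC-EV lay under PBS. None of the 11 genes was called in limma against PBS. All 11 had a negative difference in MSC-EV (median -0.91) and all 11 also in HEK-EV (median -0.20), beside 47.7% and 39.0% of all genes tested. Kupffer cell markers summed to 2623 to 3164 TPM in PBS, 1789 to 3712 in HEK-EV and 1472 to 2573 in MSC-EV, with 0 of 7 called in limma and 7 of 7 lower by estimate against PBS (median -0.55). The 9 B cell markers, another cell type with Fcgr2b, summed to 16.2 to 30.9 TPM over all samples, the 9 of natural killer cells, which carry Fcgr3, to 11.6 to 25.1 TPM, and the 9 of mast cells and basophils, which carry Fcer1g, to 3.69 to 8.77 TPM. The part of endothelial and Kupffer cell RNA in the Fcgr2b values was not tested, nor that of natural killer cell RNA in the Fcgr3 values.

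**Figure D5:**
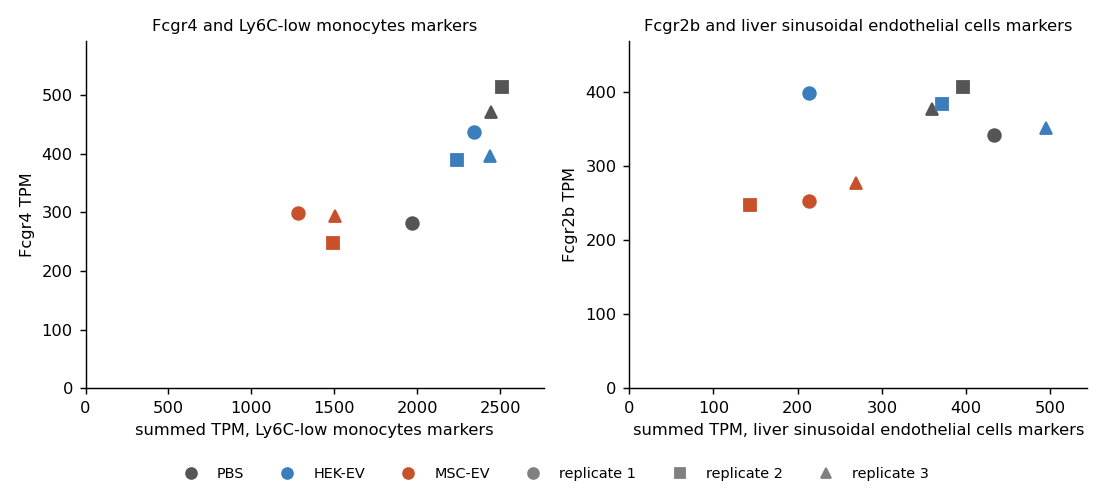
Fcgr4 TPM against the summed TPM of 9 Ly6C-low monocyte markers (left) and Fcgr2b TPM against that of 11 sinusoidal endothelial markers (right), with a point for each of the 9 samples (colour for the group, shape for the replicate). On the left PBS replicate 1 has an Fcgr4 level among those of the MSC-EV samples (281 TPM) at a marker sum of 1968 TPM, between theirs and those of the other samples, and on the right the MSC-EV samples lie lowest in Fcgr2b, at 248 to 277 TPM, with endothelial sums of 143 to 269 TPM.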

How the data were processed

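Each of the 9 samples had a gene table with columns for TPM, FPKM and coverage, per the file headers. The submitters' processing notes name HISAT2 2.1.0, StringTie and mm10; the annotation and strand setting are not given in the sources used here. RNA was Trizol-extracted and libraries made with a stranded mRNA kit, per the labels. The TPM deposited by the authors total 1000000 in a sample and were used as log2(TPM + 1), after rows of a gene ID were summed. The FPKM and the coverage signal, both deposited by the authors, served for an alternative and for relative depth. IDs were matched to RefSeq (GRCm38.p6) and 45679 of 45777 had a symbol.

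Groups were compared with limma 3.58.1 (R 4.3.3, trend, all 9 samples, no covariate, two-sided), first checked on simulated data. The simulated noise was independent between genes, so the check does not cover differences between libraries that many genes share. Loading and figures used Python 3.11.15. The 5 genes, all lists and the acinar split were chosen with earlier results of these data known. Within each pathway or marker list, up to 4 called genes of smallest p were to be named; others named, such as Syk, Spi1 and Sirpa, were chosen after their values were seen. A few planned list members and a planned motif are not reported here. Likeness between genes was the Pearson correlation of log2(TPM + 1), with the 3 closest genes named. Alternatives were another pseudocount, other filters, FPKM, other scalings, the 6 samples compared, sample weights, a replicate block, depth, the acinar split and leaving out samples. Samples of the same number did not deviate together (correlations of -0.50 to 0.06), so the numbers were not read as pairs.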

Additional observations from a re-analysis of the deposited data

How the results depend on the processing

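Over 21 alternatives, Fcgr2b was lower in MSC-EV in each, past the threshold in 15 against PBS (-0.65 to -0.44) and in 16 against HEK-EV (-0.59 to -0.45); adding the acinar split to the model gave -0.61 against PBS (limma adjusted p = 0.0546), and without the 2 libraries highest in acinar transcripts -0.58 in both comparisons. The acinar split was planned at 0.001% of TPM, which put all 9 samples on 1 side, so 0.002% and the omission of those 2 libraries were chosen after seeing the data. Fcgr1 and Fcgr4 passed against PBS with array quality weights (-0.61 and -0.77) and depth as a covariate (-0.70 and -1.06), and against HEK-EV with weights (-0.35 and -0.49), depth (-0.50 and -0.75) and only the 6 samples compared (-0.39 and -0.54). The estimate of Fcgr3 turned to 0.062 against PBS and 0.046 against HEK-EV after quantile normalization, and to 0.019 against HEK-EV on FPKM. The cause of these shifts was not tested, and the depth measure, highest in the MSC-EV samples, shares the group difference.

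Leaving out 1 sample at a time, the fold changes against PBS ran from -0.60 to -0.47 for Fcgr2b, -0.59 to -0.32 for Fcgr1, -0.82 to -0.38 for Fcgr4 and -0.10 to 0.019 for Fcgr3, and against HEK-EV from -0.59 to -0.50, -0.45 to -0.34, -0.59 to -0.46 and -0.088 to 0.020. In HEK-EV against PBS, where no member passed in any fit, they ran from -0.20 to 0.063 for Fcgr1, -0.054 to 0.070 for Fcgr2b, -0.053 to 0.041 for Fcgr3, -0.27 to 0.16 for Fcgr4 and -0.062 to 0.032 for Fcer1g. There, near-zero estimates also changed sign: Fcgr2b to -0.012 on FPKM, -0.023 with median-of-ratios scaling, -0.070 with weights, -0.057 with depth, -0.071 with the acinar term and -0.0011 without the acinar pair; Fcgr3, Fcgr4 and Fcer1g to 0.016, 0.0077 and 0.041 after quantile normalization; and Fcgr1 and Fcgr4 to 0.013 and 0.027 without the acinar pair.

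Of all genes, 706 were called in MSC-EV against PBS, 0 against PBS in HEK-EV (495 at an unadjusted p under 0.05) and 817 in MSC-EV against HEK-EV. The 706 became 361 with no filter, 77 with only the 6 samples compared, 4163 with weights, 1447 with depth, 21 with the acinar term, 0 without the acinar pair and 5 to 1861 with 1 sample left out; the 0 became 4 with no filter and 0 to 2 with 1 sample left out; the 817 became 387 with no filter, 459 on FPKM, 512 with median-of-ratios scaling, 2081 with weights, 1516 with depth, 0 without the acinar pair and 0 to 1369 with 1 sample left out. With the replicate block 404 and 448 genes were called, and it changed no call of a member; the samples share only a number. The share of calls that were higher in MSC-EV than in PBS was 36.4% on TPM, 63.1% on FPKM, 47.2% with median-of-ratios scaling and 44.5% after quantile normalization, and in MSC-EV against HEK-EV 25.6%, 59.5%, 46.3% and 45.5%. Ratios to Fcgr2b cannot change with FPKM, since the scale cancels within a sample, and each gene had the same value from its highest row. Read counts were not used here, so no counting error is given.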
